A study of Mus musculus with 6 samples.

Results

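SR proteins, heterogeneous nuclear ribonucleoproteins (hnRNPs) and RNA-binding motif (Rbm) proteins are the main RNA-binding families around the spliceosome. Their genes were taken from a whole-genome microarray of mouse lungs by symbol alone: every probe set named Srsf or Rbm with a number, or Hnrnp, with pseudogenes left out. The rule found 69 of 25428 probe sets, namely 11 SR, 19 hnRNP and 39 Rbm genes. Of these, 67 were protein-coding and 2 were the antisense transcripts Rbm3os and Rbm46os. Among the 69, 59 had a mean over all 6 lungs above the median level of the array (4.96 on the log2 scale), which included 10 SR, all 19 hnRNP and 30 Rbm genes. Hnrnpa1, Rbm31y and Rbm8a2 were not analysed here.

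The knockout animals were Nfat5(SMC)-/- mice (n = 3), which carry a floxed Nfat5 exon and a Cre recombinase inducible by tamoxifen (CreERT2) under the promoter of smooth muscle myosin heavy chain. Nfat5fl/fl mice (n = 3) carry the same floxed exon and served as controls. The study's methods describe males from the cross with this Cre line that were given tamoxifen or its carrier. The name Nfat5fl/fl therefore does not say that the controls lack the Cre. All 6 were males kept at 10% oxygen for 7 days, and 1 lung lobe of each was hybridized to 1 array. According to the study's methods, tamoxifen was given to the knockout animals only and its oil carrier to the controls, so tamoxifen and the deletion cannot be told apart. Cells other than smooth muscle keep Nfat5, and in whole lobes fewer cells of a type and less RNA per cell cannot be told apart. Mice are numbered 1, 2 and 4 in each group, values are given in that order, and every difference is the Nfat5(SMC)-/- mean less the Nfat5fl/fl mean, in log2 units.

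SR proteins carry a domain rich in arginine and serine. They bind exonic enhancers, recruit U1 and U2 particles to splice sites, and are regulated by phosphorylation through the SRPK and CLK kinases. hnRNPs coat nascent transcripts, often oppose SR proteins at the same exons, and also act in RNA stability and transport. Rbm proteins are a looser family named for the RNA recognition motif and include spliceosome components, nucleolar factors and adaptors of RNA decay. Many SR and hnRNP genes limit their own output through exons that send the transcript to nonsense-mediated decay (NMD). The deposited values give 1 level per gene and no levels of single exons.

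Nfat5 had levels of 8.23, 7.72 and 7.89 in Nfat5(SMC)-/- lungs, against 9.18, 8.62 and 9.21 in Nfat5fl/fl lungs. The groups did not overlap, with a difference of -1.06 (SE 0.20, adjusted p = 0.0707), which did not pass the threshold of 0.05. Whether its probes lie in the deleted exon was not tested, so the value cannot tell loss of the exon from a lower transcript level. Over the whole array, Nfat5(SMC)-/- mouse 1 lay at 55.8 on the first principal component (49.6% of the variance), the other Nfat5(SMC)-/- lungs at 3.12 and 3.57, and the Nfat5fl/fl lungs between -21.6 and -20.1. Lung markers such as Sftpc (surfactant protein C, 13.31, 13.64 and 13.64 in Nfat5(SMC)-/- lungs and 13.65, 13.64 and 13.64 in Nfat5fl/fl lungs) were high in every sample, and the 10 smooth muscle markers had a median difference of -0.09 with 0 called. Markers of white fat moved with the groups: all 10 had higher values in Nfat5(SMC)-/- lungs, 4 passed the test, and the median deviation of the list (each gene's level less its mean over 6 lungs) was 0.61, 1.33 and 1.57 in Nfat5(SMC)-/- lungs and -0.96, -0.74 and -1.72 in Nfat5fl/fl lungs. Of 8 ciliated cell markers, 4 passed the test as lower, with a median deviation of -0.47, -0.35 and -0.18 in Nfat5(SMC)-/- lungs and 0.42, 0.33 and 0.38 in Nfat5fl/fl lungs, whereas Tekt1 overlapped (-0.18) and Foxj1, the regulator of these cells, had 8.53, 8.06 and 7.94 in Nfat5(SMC)-/- lungs, against 7.18, 7.78 and 7.57 in Nfat5fl/fl lungs (0.66, adjusted p = 0.166). All 5 measured brown fat markers had higher values (median 1.63, 0 called), with a median deviation of 0.51, 1.27 and 0.76 in Nfat5(SMC)-/- lungs and -1.28, 0.07 and -1.16 in Nfat5fl/fl lungs. Of 8 endothelial markers, 0 were called and 4 had all knockout lungs below the controls, against 15.0% of all probe sets. Their median was -0.12, with Tek lowest (-0.43, adjusted p = 0.0548). All 8 lymphocyte and all 4 measured red cell markers had higher values (medians 0.25 and 0.40), as had 6 of 7 macrophage markers (median 0.15), with 0 called. Neutrophil (0.08), cardiac muscle (-0.10) and alveolar (-0.05) markers ran both ways, also with 0 called. Beside the 4 calls in each of the white fat and ciliated lists, 0.260% of all probe sets were called higher and 0.558% lower. The median genomic span, introns included, was 60.8 kb for ciliated, 44.6 kb for endothelial and 11.3 kb for white fat markers. Over the whole array longer genes tended to have lower differences, as given below. The part of span in these marker values was not tested, nor was the part of these cells in the results below.

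Most members of the 3 families had lower values in the Nfat5(SMC)-/- lungs, and 3 passed the test: Rbm12b2, Hnrnpdl and Hnrnph2. They were 3 of 69, where 0.558% of all probe sets were called lower. No member was called higher, where 0.260% of all probe sets were. At an unadjusted p under 0.05, 28 members were lower and 4 higher, against 11.1% and 8.19% of all probe sets. In 29 members every Nfat5(SMC)-/- lung lay below every Nfat5fl/fl lung, and in 2 every one lay above, against 15.0% and 11.8% of all probe sets. Probe sets above the median level gave 20.8% below and 15.6% above. The 69 members had a median difference of -0.24, with 53 lower and 16 higher values, while all probe sets had a median of -0.00 and an interquartile range from -0.13 to 0.12.

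Rbm12b2, a paralogue of Rbm12 with several RNA recognition motifs, had the lowest difference of all members. Its levels were 6.04, 5.76 and 6.07 in Nfat5(SMC)-/- lungs, against 7.57, 7.00 and 7.18 in Nfat5fl/fl lungs. The groups were far apart, with the highest Nfat5(SMC)-/- lung 0.93 below the lowest Nfat5fl/fl lung. Rbm12b2 fell by 1.29 (SE 0.17, adjusted p = 0.0425), to 0.408 times the level of the controls.

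Hnrnpdl, an hnRNP D-like protein that binds AU-rich elements and is subject to NMD through its own alternative splicing, was the most uniform of the called members. Its levels were 7.936, 8.008 and 8.002 in Nfat5(SMC)-/- lungs, against 8.791, 8.615 and 8.643 in Nfat5fl/fl lungs. The 3 knockout lungs lay within 0.1 of each other and well below every control. Hnrnpdl fell by 0.70 (SE 0.074, adjusted p = 0.0416), to 0.615 times the control level.

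Hnrnph2, an X-linked member of the hnRNP F/H group that binds runs of G, had levels of 6.62, 6.88 and 6.84 in Nfat5(SMC)-/- lungs, against 7.41, 7.48 and 7.41 in Nfat5fl/fl lungs. The controls were nearly equal, and Nfat5(SMC)-/- mouse 1 was the lowest lung. Hnrnph2 fell by 0.65 (SE 0.088, adjusted p = 0.0453), to 0.637 times the control level. All 3 calls depended on the lungs used: 0 members were called when any lung other than Nfat5(SMC)-/- mouse 1 was left out, 9 when that lung was left out, and 15 without that lung and Nfat5fl/fl mouse 2, where 2.47% and 3.56% of all probe sets were called lower. Each of the 3 was among the 9 and among the 15.

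**Figure D1:**
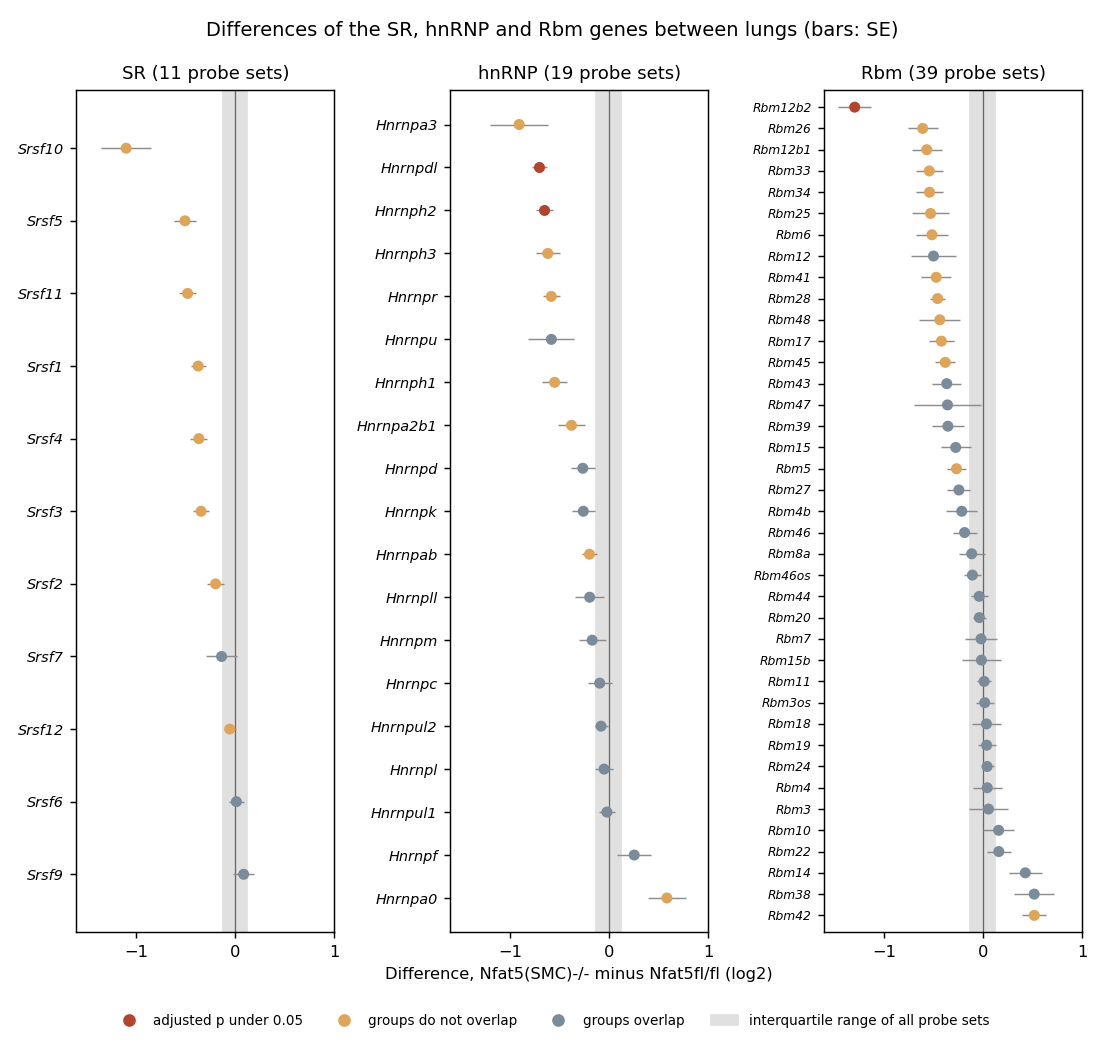
Difference in level of the 69 genes between Nfat5(SMC)-/- and Nfat5fl/fl lungs (log2, x axis; bars, SE; n = 3 lungs each), by family and in order from the lowest at the top. Red points passed an adjusted p of 0.05, yellow points had groups that did not overlap, and the grey band is the interquartile range of all 25428 probe sets; most points of each family lie left of the band's centre.

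The promoters of 4 members are shown to set the sequences upstream of genes that differed in level beside each other: Hnrnpdl and Hnrnph2 passed the test, Srsf10 had the lowest difference of the SR genes, and Hnrnpa0 had the highest of the hnRNP genes. Each is the 250 bases before the RefSeq transcription start in the GRCm38.p6 assembly. Rbm12b2 had no entry in the promoter table. NFAT5 binds sites with a core of TGGAAA, and capitals mark a match to TGGAAA or its reverse complement TTTCCA.
Hnrnpdl (chr5:100039223-100039472, minus strand): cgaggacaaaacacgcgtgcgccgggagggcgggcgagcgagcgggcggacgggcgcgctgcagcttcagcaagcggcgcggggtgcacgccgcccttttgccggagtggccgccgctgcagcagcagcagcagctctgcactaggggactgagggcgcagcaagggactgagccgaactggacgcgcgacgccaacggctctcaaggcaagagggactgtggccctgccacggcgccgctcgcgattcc
Hnrnph2 (chrX:134600929-134601178, plus strand): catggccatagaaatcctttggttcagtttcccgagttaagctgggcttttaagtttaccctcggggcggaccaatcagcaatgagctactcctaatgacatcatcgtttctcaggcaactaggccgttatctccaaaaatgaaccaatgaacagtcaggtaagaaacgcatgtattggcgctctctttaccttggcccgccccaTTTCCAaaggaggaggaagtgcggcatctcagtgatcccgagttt
Srsf10 (chr4:135855821-135856070, plus strand): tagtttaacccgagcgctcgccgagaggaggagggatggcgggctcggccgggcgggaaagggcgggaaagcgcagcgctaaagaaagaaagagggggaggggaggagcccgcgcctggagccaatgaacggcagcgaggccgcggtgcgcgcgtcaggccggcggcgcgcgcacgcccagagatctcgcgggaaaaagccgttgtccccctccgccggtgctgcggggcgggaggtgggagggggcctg
Hnrnpa0 (chr13:58128557-58128806, minus strand): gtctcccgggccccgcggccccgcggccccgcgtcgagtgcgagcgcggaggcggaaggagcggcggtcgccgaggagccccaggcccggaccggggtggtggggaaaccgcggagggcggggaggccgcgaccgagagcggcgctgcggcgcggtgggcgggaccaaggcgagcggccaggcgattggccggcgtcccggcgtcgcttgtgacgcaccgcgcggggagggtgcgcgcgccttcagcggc
Only the Hnrnph2 window of these 4 held the core, once. The GC content was 72.0% for Hnrnpdl and Srsf10, 81.2% for Hnrnpa0 and 48.4% for Hnrnph2. Promoters were matched for 59 of the 69 genes. Of these 59, 11 (18.6%) held the core on either strand in at least 1 window of this length, against 20.9% of 27025 genes. A match of 6 letters is a description of the sequence and not a binding site.

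The SR genes, as a family, had a median difference of -0.34, with 9 of 11 values lower. Of the 11, 0 passed the test, 6 had an unadjusted p under 0.05, all lower, and 8 had no overlap between groups, all below. Of all probe sets, 0.558% were called lower and 11.1% were lower at that unadjusted p. All knockout lungs lay below in 15.0% of them, and in 20.8% of those above the median level. Srsf10, a splicing repressor when dephosphorylated, stood lowest. Its levels were 6.77, 6.87 and 7.26 in Nfat5(SMC)-/- lungs, against 8.44, 7.55 and 8.20 in Nfat5fl/fl lungs. Both groups were spread, with Nfat5fl/fl mouse 2 closest to the knockout lungs, and the difference was -1.10 (SE 0.25, adjusted p = 0.0931).

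Srsf5, Srsf11 and Srsf1 followed. Srsf5 had levels of 9.08, 9.01 and 8.70 in Nfat5(SMC)-/- lungs, against 9.43, 9.47 and 9.41 in Nfat5fl/fl lungs, a difference of -0.50 (SE 0.11, adjusted p = 0.0875). Srsf11, an SR-related protein, had 6.99, 7.05 and 7.11 in Nfat5(SMC)-/- lungs, against 7.59, 7.39 and 7.62 in Nfat5fl/fl lungs, a difference of -0.48 (SE 0.086, adjusted p = 0.0643). For Srsf1, the founding SR protein with roles in splicing, NMD and translation, levels of 8.85, 8.98 and 8.80 in Nfat5(SMC)-/- lungs stood against 9.31, 9.19 and 9.24 in Nfat5fl/fl lungs (-0.37, SE 0.076, adjusted p = 0.0758). In all 3 genes the groups were separate by more than 0.2, and the knockout lungs were tight in Srsf11 and wider in Srsf5.

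Srsf4 (-0.36, adjusted p = 0.0973), Srsf3 (-0.34, adjusted p = 0.105) and Srsf2 (-0.20, adjusted p = 0.295) also had all knockout lungs below the controls. Srsf2 was close to overlap, with 10.24, 10.38 and 10.52 in Nfat5(SMC)-/- lungs against 10.57, 10.52 and 10.63 in Nfat5fl/fl lungs. Srsf7 (-0.14), Srsf6 (0.01) and Srsf9 (0.09) overlapped between groups. Srsf6 changed sign without Nfat5(SMC)-/- mouse 1, without Nfat5fl/fl mouse 2 or with a correction for gene span, and Srsf9 changed sign without Nfat5(SMC)-/- mouse 1. Srsf12 lay below the median level of the array (-0.05). The lower values were not shared by every SR gene, although no pair of them was tested against each other.

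**Figure D2:**
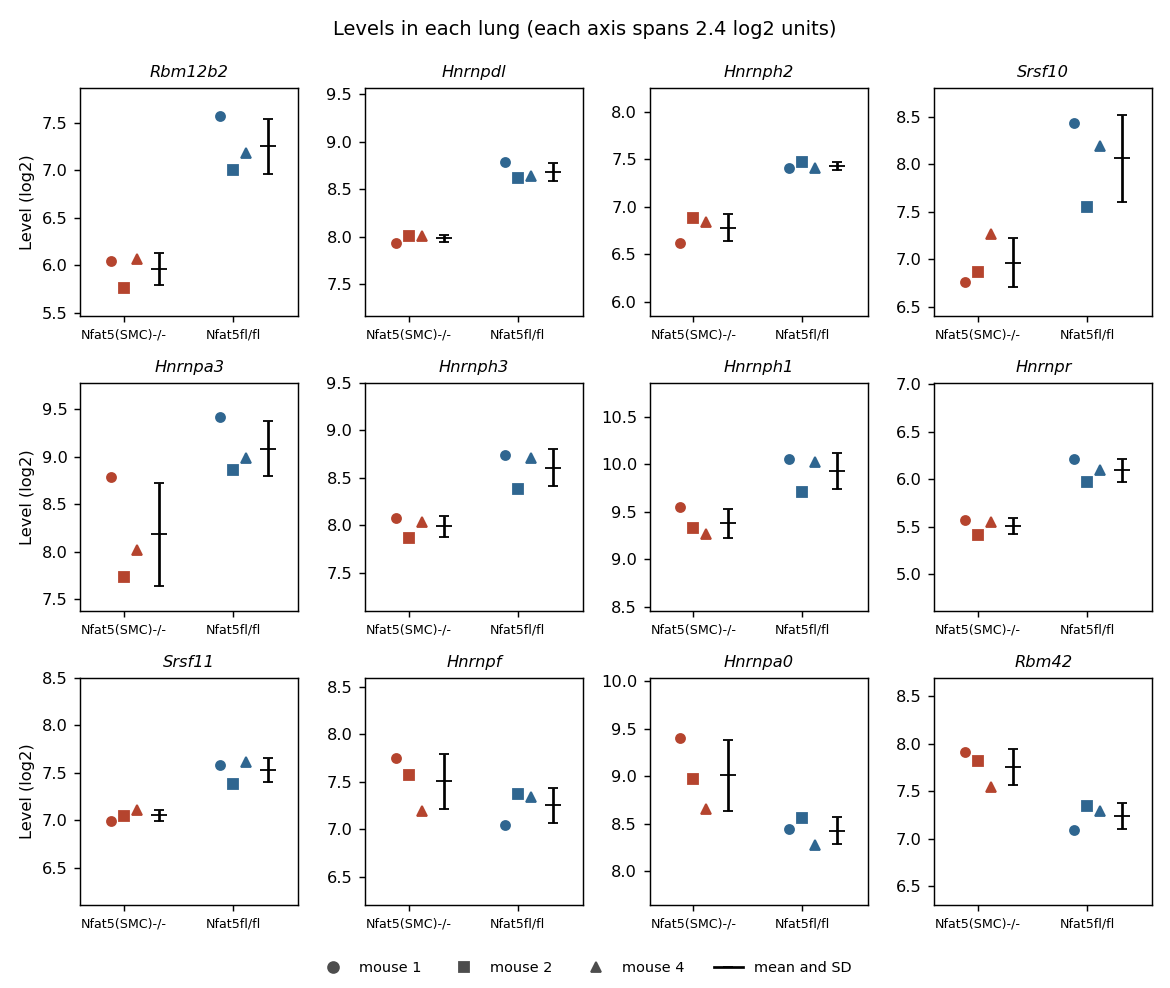
Level of 12 genes (log2, y axis) in each lung, Nfat5(SMC)-/- on the left and Nfat5fl/fl on the right; symbols mark mouse 1, 2 and 4, bars the mean and SD (n = 3 each). The groups overlap in Hnrnpf alone of the 12; Hnrnpa0 and Rbm42 have all knockout lungs above the controls and the other 9 have them all below.

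hnRNP genes had a median difference of -0.26, with 17 of 19 values lower. Of the 19, 2 passed the test, 9 were lower and 1 higher at an unadjusted p under 0.05, and 8 had all Nfat5(SMC)-/- lungs below and 1 all above. Of all probe sets, 0.558% were called lower, and 11.1% were lower and 8.19% higher at that unadjusted p. All knockout lungs lay below in 15.0% and above in 11.8% of them. Above the median level these shares were 20.8% and 15.6%. The F/H group was split: Hnrnph1, Hnrnph2 and Hnrnph3 were lower and Hnrnpf was higher in value. Hnrnph3, the shortest of the group's proteins, had levels of 8.07, 7.86 and 8.04 in Nfat5(SMC)-/- lungs, against 8.74, 8.38 and 8.71 in Nfat5fl/fl lungs (-0.62, SE 0.12, adjusted p = 0.0707). Hnrnph1 had 9.55, 9.33 and 9.26 in Nfat5(SMC)-/- lungs, against 10.05, 9.71 and 10.03 in Nfat5fl/fl lungs (-0.55, SE 0.13, adjusted p = 0.095). The groups were separate in both genes. Hnrnpf, which binds the same G runs, had 7.76, 7.58 and 7.19 in Nfat5(SMC)-/- lungs, against 7.04, 7.38 and 7.34 in Nfat5fl/fl lungs (0.25, SE 0.17, adjusted p = 0.468), and Nfat5(SMC)-/- mouse 4 lay among the controls.

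The A/B group held members in both directions. Hnrnpa3 had levels of 8.79, 7.74 and 8.02 in Nfat5(SMC)-/- lungs, against 9.42, 8.86 and 8.99 in Nfat5fl/fl lungs, a difference of -0.91 (SE 0.29, adjusted p = 0.17). Its highest knockout lung, mouse 1, came within 0.1 of the lowest control. Hnrnpa0, a single-exon gene in the same group, had 9.40, 8.97 and 8.65 in Nfat5(SMC)-/- lungs, against 8.44, 8.56 and 8.28 in Nfat5fl/fl lungs. All 3 knockout lungs lay above the controls, by 0.58 on average (SE 0.20, adjusted p = 0.182). Hnrnpa2b1 (-0.38, adjusted p = 0.209) and Hnrnpab (-0.20, adjusted p = 0.212) had all knockout lungs below.

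Among the other hnRNP genes, Hnrnpr, which takes part in mRNA processing and transport, had levels of 5.57, 5.42 and 5.55 in Nfat5(SMC)-/- lungs, against 6.21, 5.97 and 6.09 in Nfat5fl/fl lungs. The groups were separate by 0.41, with a difference of -0.58 (SE 0.088, adjusted p = 0.0526). Hnrnpu, the scaffold attachment factor of the nuclear matrix, had 9.50, 8.77 and 9.09 in Nfat5(SMC)-/- lungs, against 10.02, 9.39 and 9.70 in Nfat5fl/fl lungs (-0.58, SE 0.23, adjusted p = 0.246). Nfat5(SMC)-/- mouse 1 lay above Nfat5fl/fl mouse 2, so these groups overlapped. Differences were smaller for Hnrnpd (-0.26), Hnrnpk (-0.26), Hnrnpll (-0.20), Hnrnpm (-0.17), Hnrnpc (-0.09), Hnrnpul2 (-0.08), Hnrnpl (-0.05) and Hnrnpul1 (-0.02), all with overlapping groups. The last 2 of these changed sign under at least 1 other setting.

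Rbm genes were the most mixed, with a median difference of -0.21 and 27 of 39 values lower. Of the 39, 1 passed the test, 13 were lower and 3 higher at an unadjusted p under 0.05, and 13 had all Nfat5(SMC)-/- lungs below and 1 all above. Over all probe sets the shares were 0.558% called lower, and 11.1% lower and 8.19% higher at that unadjusted p. All knockout lungs lay below in 15.0% and above in 11.8% of them, and in 20.8% and 15.6% of those above the median level. The 30 Rbm genes above the median level of the array had a median of -0.31, and the 9 below it included both antisense transcripts and Rbm20, Rbm24, Rbm44 and Rbm46.

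The Rbm12 group was lower in value in all 3 of its genes. Rbm12b1 had levels of 4.31, 4.79 and 4.84 in Nfat5(SMC)-/- lungs, against 5.14, 5.27 and 5.23 in Nfat5fl/fl lungs (-0.57, SE 0.15, adjusted p = 0.116). Its mean over all lungs lay below the median level of the array. Rbm12 had 6.03, 6.54 and 6.89 in Nfat5(SMC)-/- lungs, against 7.20, 6.81 and 6.94 in Nfat5fl/fl lungs (-0.50, SE 0.23, adjusted p = 0.298). Rbm12b1 and Rbm12b2 are close copies on chromosome 4, and how far their probes tell them apart was not tested. The Rbm12 groups overlapped through Nfat5(SMC)-/- mouse 4, which lay above Nfat5fl/fl mouse 2.

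Of 10 spliceosome-associated Rbm genes, 7 had lower values and 0 passed the test (median -0.31). Rbm25, which binds U1 particles and sets 5′ splice site choice, had 9.15, 8.46 and 8.78 in Nfat5(SMC)-/- lungs, against 9.49, 9.15 and 9.33 in Nfat5fl/fl lungs (-0.53, adjusted p = 0.198). Rbm6 (-0.51, adjusted p = 0.162), Rbm17, the U2-related factor SPF45 (-0.42, adjusted p = 0.149), Rbm48 of the minor spliceosome (-0.44, adjusted p = 0.318) and the exon-skipping regulator Rbm5 (-0.27, adjusted p = 0.198) also had all knockout lungs below the controls. Rbm39, a coactivator related to U2AF (-0.35), and Rbm8a of the exon junction complex (-0.11) overlapped. In the other direction, Rbm42 had 7.91, 7.82 and 7.54 in Nfat5(SMC)-/- lungs, against 7.08, 7.34 and 7.29 in Nfat5fl/fl lungs (0.52, SE 0.12, adjusted p = 0.0976). It was the only Rbm gene with all knockout lungs above the controls, while Rbm10 (0.16) and Rbm22 of the catalytic core (0.16) overlapped.

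The nucleolar Rbm28 had tight and separate groups, with 6.92, 6.90 and 7.04 in Nfat5(SMC)-/- lungs, against 7.47, 7.35 and 7.41 in Nfat5fl/fl lungs (-0.46, SE 0.072, adjusted p = 0.0558). Rbm34, also nucleolar, differed by -0.54 (adjusted p = 0.11) with no overlap, and the ribosomal RNA processing factor Rbm19 by 0.04. Rbm26, which works with the nuclear exosome, had 7.78, 7.36 and 7.57 in Nfat5(SMC)-/- lungs, against 8.36, 7.94 and 8.24 in Nfat5fl/fl lungs (-0.61, SE 0.15, adjusted p = 0.109), and its groups were separate. Its relative Rbm27 (-0.24) and Rbm7 of the exosome targeting complex (-0.02) overlapped. Rbm33 (-0.54, adjusted p = 0.108), Rbm41 (-0.47, adjusted p = 0.172) and Rbm45 (-0.38, adjusted p = 0.123) had all knockout lungs below. Rbm43 (-0.37), Rbm4b (-0.21), Rbm18 (0.03) and Rbm4 (0.04) overlapped between groups.

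Rbm15 (-0.28) and Rbm15b (-0.02), adaptors of the complex that writes the m6A mark on RNA, overlapped. So did Rbm47, a cofactor of RNA editing, with levels of 6.52, 7.80 and 7.66 in Nfat5(SMC)-/- lungs, against 7.54, 7.73 and 7.79 in Nfat5fl/fl lungs. Nfat5(SMC)-/- mouse 1 lay over 1 log2 unit below every other lung, and the other 2 knockout lungs were at the level of the controls (difference -0.36). Among higher values, Rbm38, a p53 target that acts on mRNA stability, had 6.83, 6.18 and 6.47 in Nfat5(SMC)-/- lungs, against 5.69, 6.06 and 6.19 in Nfat5fl/fl lungs (0.52, adjusted p = 0.236). Rbm14, a paraspeckle protein and coactivator, had 7.86, 8.20 and 8.13 in Nfat5(SMC)-/- lungs, against 7.88, 7.33 and 7.71 in Nfat5fl/fl lungs (0.43, adjusted p = 0.234). In each of these 2 genes a single knockout lung kept the groups from separating.

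Rbm3 and Cirbp, the cold-inducible pair of RNA-binding proteins that is also known to respond to low oxygen in human cells, were set side by side. Rbm3 had 6.05, 5.34 and 5.41 in Nfat5(SMC)-/- lungs, against 5.46, 5.50 and 5.67 in Nfat5fl/fl lungs (0.05, SE 0.20, adjusted p = 0.916). Without Nfat5(SMC)-/- mouse 1, the highest lung, the difference was -0.17. Cirbp, which is outside the 3 families, had 5.75, 6.18 and 6.03 in Nfat5(SMC)-/- lungs, against 6.25, 6.73 and 6.44 in Nfat5fl/fl lungs (-0.49, SE 0.16, adjusted p = 0.18), with the groups separate. The difference between the 2 genes was not tested.

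The lower values were spread over the Nfat5(SMC)-/- lungs. The median deviation of the SR genes from each gene's mean over 6 lungs was -0.10, -0.10 and -0.18 in Nfat5(SMC)-/- lungs and 0.10, 0.07 and 0.18 in Nfat5fl/fl lungs. For the hnRNP genes it was -0.07, -0.17 and -0.23 in Nfat5(SMC)-/- lungs and 0.30, 0.08 and -0.00 in Nfat5fl/fl lungs, where Nfat5fl/fl mouse 1 was highest and mouse 4 near 0. For the Rbm genes it was -0.09, -0.09 and -0.07 in Nfat5(SMC)-/- lungs and 0.09, 0.06 and 0.13 in Nfat5fl/fl lungs. Each family had all 3 knockout lungs below all 3 controls by this measure. Nfat5(SMC)-/- mouse 1, which stood apart on the whole array, was the lowest knockout lung in 19 of the 59 members above the median level, mouse 2 in 22 and mouse 4 in 18. By family the split was less even. For mice 1, 2 and 4 it was 3, 2 and 5 of 10 SR, 4, 6 and 9 of 19 hnRNP, and 12, 14 and 4 of 30 Rbm genes. When each lung was left out in turn, 9 of 11 SR, 15 of 19 hnRNP and 23 of 39 Rbm genes had lower values in all 6 fits, and 0, 2 and 6 had higher values in all 6. These 6 fits share most of their lungs, and a gene whose groups do not overlap keeps its sign in all of them. The share over all probe sets was not counted.

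Other genes of the splicing machinery were set beside the families from lists of known functions. The 3 lists that regulate splicing had medians between -0.38 and -0.35. With each array corrected for the genomic span of genes, the SR-related coactivators had -0.25, the other regulators -0.24 and the kinases -0.36, and without both Nfat5(SMC)-/- mouse 1 and Nfat5fl/fl mouse 2 the other regulators had -0.21. The 8 SR protein kinases had a median of -0.36 and 0 calls: Prpf4b differed by -0.63 (adjusted p = 0.228), Clk4 by -0.41, Clk1 by -0.41 (adjusted p = 0.163), Clk2 by -0.38, Srpk1 by -0.34, Srpk2 by -0.23, Clk3 by -0.03 and Srpk3 by 0.19. Only Clk1, with 10.01, 9.64 and 9.80 in Nfat5(SMC)-/- lungs, against 10.40, 10.08 and 10.19 in Nfat5fl/fl lungs, had separate groups, and the last 2 changed sign without Nfat5(SMC)-/- mouse 1. The 21 SR-related coactivators had a median of -0.38, 0 calls and 11 genes with all knockout lungs below, against 15.0% of all probe sets. Their median span was 32.6 kb. Of probe sets above the median level with spans from 30.5 to 68 kb, 27.6% had all knockout lungs below. The list was led by Pnisr (-1.09, adjusted p = 0.052) and Luc7l2 (-0.90, adjusted p = 0.125). Scaf1 (0.33) and Thrap3 (0.20) were its highest values.

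Of 37 other splicing regulators, 3 were called lower and 0 higher, against 0.558% and 0.260% of all probe sets. Their median was -0.35, and 20 had all knockout lungs below, against 15.0% of all probe sets. Their median span was 41.5 kb. Of probe sets above the median level with spans from 30.5 to 68 kb, 27.6% had all knockout lungs below. Ptbp2, the neuronal paralogue of the polypyrimidine tract binding protein, had 7.13, 7.01 and 7.12 in Nfat5(SMC)-/- lungs, against 7.90, 7.71 and 7.72 in Nfat5fl/fl lungs, and fell by 0.69 (SE 0.081, adjusted p = 0.0416). Tial1, a stress granule protein that promotes use of weak 5′ splice sites, fell by 0.60 (adjusted p = 0.0478), and Mbnl2, a muscleblind regulator of developmental splicing, by 0.52 (adjusted p = 0.0481). The groups were separate in all 3. Like those of the members, these calls were lost when any lung other than Nfat5(SMC)-/- mouse 1 was left out, and the adjusted p of each reached 0.228 over the settings. With the span correction all 3 lost the call. Ptbp2 then differed by -0.57 (adjusted p = 0.0589), Tial1 by -0.60 (adjusted p = 0.0587) and Mbnl2 by -0.36 (adjusted p = 0.0875). Pcbp1, a poly(C)-binding relative of Hnrnpk, had the highest value of the list (0.68, adjusted p = 0.11), followed by Nova2 (0.26).

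The lists of core spliceosome genes and of exon junction and NMD genes had medians near 0. They were 0.10 for 10 snRNP core and U1 proteins, 0.08 for 14 U2 and branch site proteins, -0.04 for 21 tri-snRNP and catalytic proteins, and 0.03 for 13 exon junction and NMD genes. Without both Nfat5(SMC)-/- mouse 1 and Nfat5fl/fl mouse 2 the first of these was -0.02 and the third 0.05, and the last changed sign when single lungs were left out. Of these 58 genes, 1 was called, as higher, where 0.260% of all probe sets were called higher. It was Sf3b5, a small SF3b subunit, with 7.82, 7.75 and 7.58 in Nfat5(SMC)-/- lungs, against 6.85, 7.12 and 6.99 in Nfat5fl/fl lungs. Sf3b5 rose by 0.73 (SE 0.10, adjusted p = 0.0487). This call too was lost when any lung other than Nfat5(SMC)-/- mouse 1 was left out, with an adjusted p of up to 0.228 over the settings. Sf3b5 spans 0.73 kb, and with the span correction it differed by 0.62 (adjusted p = 0.0749). Within each list values ran both ways. In the U2 list U2af1 (-0.59) and Sf3b1 (-0.44) stood against Sf3b6 (0.55). The snRNP core and U1 list had Snrpc (-0.43) and Snrpa (-0.31) against Snrpe (0.58) and Snrpb2 (0.46). The tri-snRNP and catalytic list had Prpf39 (-1.03) and Prpf38b (-0.46) against Prpf6 (0.36) and Eftud2 (0.28). The exon junction and NMD list had Smg1 (-0.74) and Upf2 (-0.59) against Casc3 (0.36) and Eif4a3 (0.33). Snrpb2 is a U2 protein and Prpf39 a U1-associated factor, and the lists were not redrawn for them. Sf3b6 and Snrpe were highest in Nfat5(SMC)-/- mouse 1, by over 1 log2 unit, and without that lung they differed by 0.11 and 0.07. No family or list was tested against another.

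**Figure D3:**
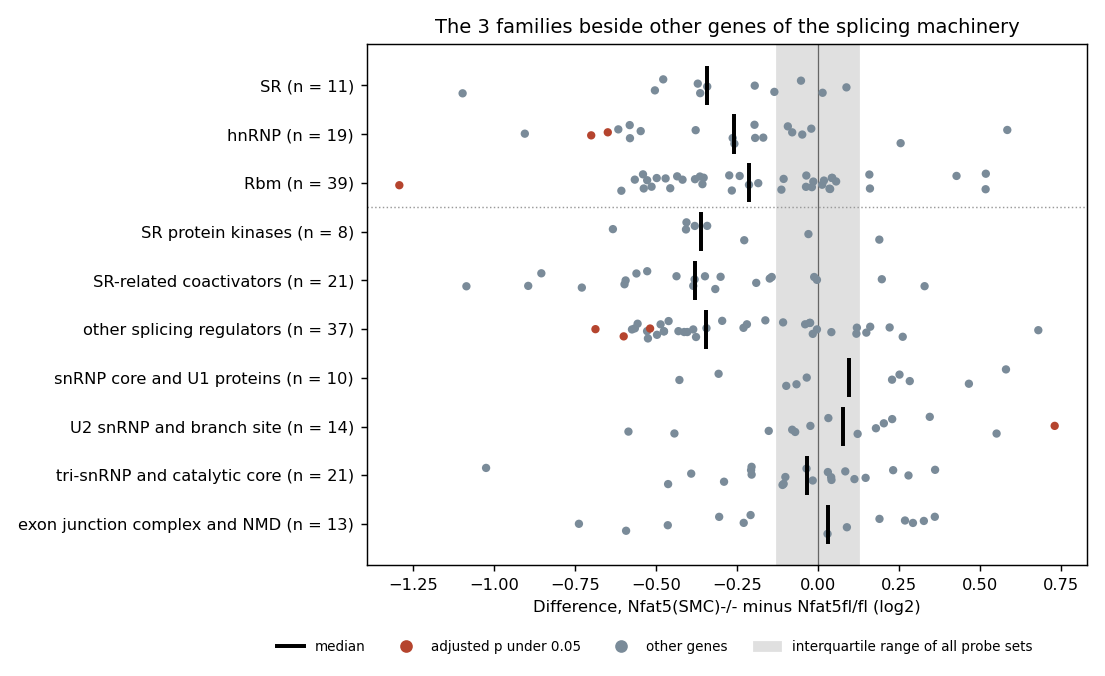
Difference between Nfat5(SMC)-/- and Nfat5fl/fl lungs (log2, x axis) for each gene of the SR, hnRNP and Rbm families, above the dotted line, and of 7 other lists of splicing genes; black bars are medians, red points passed an adjusted p of 0.05 and the grey band is the interquartile range of all probe sets. The medians of the families, kinases, coactivators and other regulators lie between -0.38 and -0.21, those of the core spliceosome and exon junction lists between -0.04 and 0.10.

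Over the whole array the difference ran with the genomic span of the gene, introns included. Among 12790 probe sets above the median level, Spearman's rho across genes was -0.421, and the medians of 5 equal bins of span, short to long, were 0.20, 0.09, 0.01, -0.11 and -0.23. The members were not long genes: their median span was 14.2 kb, against 22.3 kb for those probe sets. In the same bins, the members had medians of -0.20 (n = 7), -0.21 (n = 24), -0.39 (n = 12), -0.22 (n = 10) and -0.49 (n = 6), and rho was -0.196 over these 59 genes, which share the 6 arrays. All knockout lungs lay below the controls in 4 of 7, 10 of 24, 6 of 12, 3 of 10 and 4 of 6 members of these bins, against 6.18%, 11.1%, 17.4%, 27.6% and 41.5% of all probe sets, so in the bin next to the longest the members' share was close to that of the array. With each array corrected for span, the median was -0.34 for SR, -0.26 for hnRNP and -0.20 for Rbm genes, and of the calls only Hnrnpdl was kept, at -0.77 (adjusted p = 0.0491). Rbm12b2 then differed by -1.31 (adjusted p = 0.0558) and Hnrnph2 by -0.72 (adjusted p = 0.0560), each at least as far from 0 as before the correction.

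**Figure D4:**
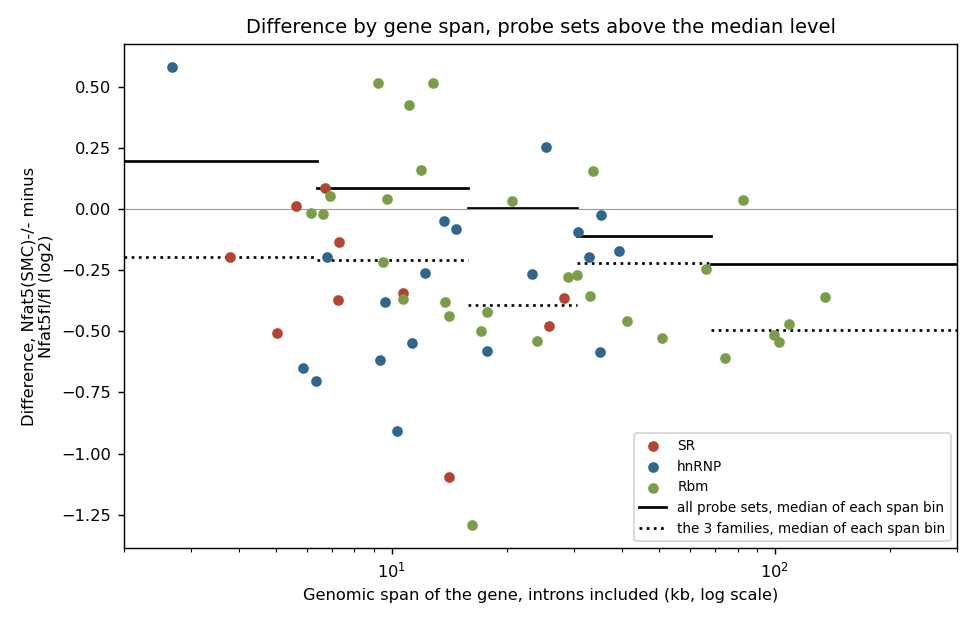
Difference between Nfat5(SMC)-/- and Nfat5fl/fl lungs (log2, y axis) against genomic span in kb (log scale, x axis) for the 59 SR, hnRNP and Rbm genes above the median level. Solid steps are medians of all probe sets in 5 equal bins of span and dotted steps those of the members, with the outer bins cut at the limits of the axis; the dotted steps lie below the solid ones in each bin.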

How the data were processed

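Total RNA of 6 lung lobes was hybridized to Affymetrix Mouse Gene 2.0 ST arrays. The deposited values are log2 levels that the authors made by RMA and quantile normalization, with a custom chip definition of version 22 that forms 1 probe set per Entrez gene. The version of RMA was not stated in the sources used here. All arrays then share 1 distribution, so differences are relative to the rest of the array. Symbols came from the platform table, updated through a RefSeq gene table of GRCm38.p6, which added Srsf7. The platform's own symbols gave 68 members.

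Groups were compared by limma (version 3.58.1, run in R 4.3.3; linear model with empirical Bayes moderation, two-sided, Benjamini-Hochberg over 25428 probe sets at 0.05). The estimates of the fit were checked on simulated data with independent noise for each gene. Such data cannot check the calls where a whole lung stands apart. Labels do not say how samples were batched. With 6 arrays, their number limits the precision, and an exact permutation test of 3 against 3 cannot go below p = 0.1. Families and lists were described, not tested. Named were Nfat5, each called member, the 5 highest and 5 lowest brighter members of each family, the Rbm12 group, Rbm3, Cirbp, the SR protein kinases, and called genes with the 2 highest and 2 lowest brighter genes of the other lists. Further members were named after their values were seen. Members and lists were chosen with earlier results of these data known.

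Alternatives were a mean-dependent prior, an ordinary t-test, cyclic loess, brighter probe sets alone and a replicate block. Others were a span correction (loess span 0.3), each lung left out, and 2 lungs left out together. For its arrays the study named a one-way ANOVA with false discovery correction.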

Additional observations from a re-analysis of the deposited data

How the results depend on the processing

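The count of calls was not stable. Over all probe sets, 66 were called higher and 142 lower, and 4906 had an unadjusted p under 0.05. A mean-dependent prior called 2 higher and 0 lower, the ordinary t-test 0 and 0, cyclic loess 1 and 0, the span correction 21 and 21, brighter probe sets alone 17 and 16. Without both Nfat5(SMC)-/- mouse 1 and Nfat5fl/fl mouse 2, the lung of each group that correlated least with its own group (r = 0.970 and 0.987), 548 were higher and 904 lower. With 1 lung left out the counts ran between 0 and 353 higher and between 0 and 627 lower, and only the fit without Nfat5(SMC)-/- mouse 1 gave any. The members called lower (3) were 0 with the mean-dependent prior, the t-test and cyclic loess, 1 with the span correction, 1 among brighter probe sets, 15 without both lungs and between 0 and 9 with 1 lung left out. By family these were 0, 0, 0, 1, 0, 7 and between 0 and 4 for hnRNP (2), 0, 0, 0, 0, 1, 6 and between 0 and 4 for Rbm (1), and for SR (0) 2 without both lungs, between 0 and 1 with 1 lung left out and 0 otherwise. Members called higher were 0 under each alternative. The cause was not tested. Same-numbered mice deviated together with r = 0.133, 0.411 and 0.0775, and differently numbered ones with r between -0.329 and 0.145. Deviations from a mean of 3 lungs are tied to each other, so these values cannot tell whether the numbers pair the lungs. The fit with the number as a replicate block called 0 probe sets higher, 0 lower and 0 members. The family medians stayed below 0: with 1 lung left out they ran between -0.36 and -0.30 for SR, -0.35 and -0.15 for hnRNP, and -0.29 and -0.12 for Rbm genes. For Rbm the median was -0.18 with cyclic loess, -0.35 among brighter probe sets and -0.13 without both lungs. Nfat5 was called at -1.39 without both lungs, and its difference ran between -1.25 and -0.94 with 1 lung left out, called at -1.20 without Nfat5(SMC)-/- mouse 1. Of 858 values of 66 named genes under alternatives, 742 kept their direction and side of the threshold, 75 lost and 22 gained the call, and 19 changed sign, all of genes that did not pass the test. Most of the 742 were of genes not called in the main fit, which had no call to lose. Each named gene called in that fit lost the call in most settings. The prior, the t-test, the replicate block and the brighter probe sets leave each difference as it was by construction. Without both lungs, Clk3 was 0.20, Hnrnpul1 0.057, Rbm3 -0.19, Srpk3 -0.13, Srsf6 -0.070 and Srsf9 -0.031. With the span correction Hnrnpul1 was 0.034, Rbm3 -0.010 and Srsf6 -0.059, and with cyclic loess Hnrnpul1 was 0.0086. With 1 lung left out, Clk3 ran between -0.18 and 0.17, Hnrnpl between -0.095 and 0.013, Hnrnpul1 between -0.087 and 0.027, Rbm3 between -0.17 and 0.19, Srpk3 between -0.083 and 0.35, Srsf6 between -0.042 and 0.049 and Srsf9 between -0.0054 and 0.18. The 3 lungs per group limit what small differences can show.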
